A study of Mus musculus with 36 samples.

Results

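The 10 genes described here encode proteins that fold secreted and membrane proteins in the endoplasmic reticulum (ER), or transcription factors that control such genes. They are Hspa5, Hsp90b1, Dnajb9, Calr, Canx, Pdia3, Pdia4, Pdia6, Xbp1 and Atf6. They were picked by symbol from the 23352 gene entries of the deposited tables and each was found once. The question of the series was how the daily expression programme of the heart differs between mice without Klf15 and control mice. Klf15 (Kruppel-like factor 15) is a zinc-finger transcription factor. The apex of the heart was profiled by ribosome-depleted total RNA sequencing in 2 genotypes every 4 h, which gave 6 times of day, 12 groups of 3 libraries and 36 libraries.

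The first genotype, named cK15, is labelled as a Klf15 knockout. The second, the control, carries the alpha-MHC cre transgene, whose promoter is active in heart muscle cells. Whether the cK15 mice carry that transgene, and in which cells of their hearts Klf15 was removed, is not given in the labels. All animals were C57BL/6J males of 11 to 12 weeks, housed under equal periods of light and dark (12 h each). The sources used here do not give the hour at which lights came on. Since the labels do not tie the libraries of a group to different animals, p-values reflect only how these libraries spread, and part of that spread may be technical.

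The ER takes up proteins as they are made. Hspa5, also called BiP or GRP78, holds unfolded chains by ATP-driven cycles. Calreticulin and calnexin hold glycoproteins, and the protein disulfide isomerases form and reshuffle disulfide bonds. When unfolded chains build up, the unfolded protein response raises these genes through XBP1, which the sensor IRE1 activates by splicing its mRNA, and through ATF6, a membrane-bound factor freed by cleavage. Heart muscle cells keep their calcium stores in the sarcoplasmic reticulum, a specialised form of the same organelle, and fibroblasts use the ER for collagen.

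Levels are in FPKM, fragments scaled to gene length and library total, which allows genes to be compared per length. Klf15 itself was listed at 0 in 13 of 18 cK15 libraries and reached 0.326 FPKM in the highest, against 1.45 ± 0.727 FPKM (SD, n = 18) in control libraries, with a log2 fold change of -1.16 (limma, adjusted p = 2.16e-10). In 12 of the 36 libraries, 1 in each group, the share of the summed FPKM held by the top 10 genes was 16.1% to 17.7%, against 21.7% to 25.03% in the other 24. These 12 are called the set-apart libraries below. At 8 pm they were replicate 4 in each genotype, and at the other 5 times replicate 1 of cK15 and replicate 2 of control. The sources used here do not say what made them differ, and results are given with and without them. Leaving out replicate 1 of cK15 or replicate 2 of control removes all set-apart libraries of that genotype except the one at 8 pm. Library set and genotype are then unbalanced, which applies to every result below without either replicate. Heart muscle markers were abundant in every library, with a summed level of 62207 to 126459 FPKM over 8 genes in cK15 and 63615 to 114788 FPKM in control libraries.

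Promoters are shown first, because 5 of the 10 genes hold a known element there. The ER stress response element (ERSE), known from the mammalian Hspa5 promoter, reads CCAAT, then any 9 bases, then CCACG. RefSeq promoter windows (build GRCm38.p6, 250 bases before to 50 after the gene start) were found for 9 of the 10 genes, all but Atf6. Exact matches on either strand stood in 5 of the 9 windows, those of Hspa5, Hsp90b1, Calr, Canx and Pdia6, against 39 of 32851 windows (0.119%) in the whole table. The windows of Pdia3, Pdia4, Dnajb9 and Xbp1 held none. Since the element is known from the Hspa5 promoter, its match there is not an independent finding.

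The 250 bases upstream of the start are printed 5′ to 3′ for the 3 genes that were lower in cK15 and for Hspa5, the best known carrier of the element. Capitals mark exact matches, on either strand, to the ERSE, to CCACG alone (in 32.8% of all windows), to the GC box GGGGCGGGG (11.4%) and to CCCCACCC (9.99%), a sequence of the kind that Kruppel-like factors bind. CCACG alone overlaps the ERSE by design, and any ERSE-II or GCCACGT match likewise holds it.
Pdia6 (chr12:17266339-17266588, plus strand): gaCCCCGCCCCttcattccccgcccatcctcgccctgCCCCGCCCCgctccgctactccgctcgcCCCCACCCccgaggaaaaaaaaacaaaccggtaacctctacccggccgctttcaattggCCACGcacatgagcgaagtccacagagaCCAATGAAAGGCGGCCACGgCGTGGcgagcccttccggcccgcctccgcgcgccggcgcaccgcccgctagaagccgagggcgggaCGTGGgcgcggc
Hspa5 (chr2:34771840-34772089, plus strand): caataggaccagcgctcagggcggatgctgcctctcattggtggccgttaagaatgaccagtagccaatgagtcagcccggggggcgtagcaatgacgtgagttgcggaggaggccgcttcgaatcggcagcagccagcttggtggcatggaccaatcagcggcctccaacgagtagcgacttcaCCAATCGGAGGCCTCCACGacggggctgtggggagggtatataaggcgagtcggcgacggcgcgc
Pdia4 (chr6:47813513-47813762, minus strand): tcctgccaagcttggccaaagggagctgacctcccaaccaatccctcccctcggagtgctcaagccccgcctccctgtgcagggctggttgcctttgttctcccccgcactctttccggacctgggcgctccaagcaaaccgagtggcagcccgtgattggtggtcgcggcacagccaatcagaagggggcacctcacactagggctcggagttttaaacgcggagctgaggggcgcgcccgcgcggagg
Xbp1 (chr11:5520391-5520640, plus strand): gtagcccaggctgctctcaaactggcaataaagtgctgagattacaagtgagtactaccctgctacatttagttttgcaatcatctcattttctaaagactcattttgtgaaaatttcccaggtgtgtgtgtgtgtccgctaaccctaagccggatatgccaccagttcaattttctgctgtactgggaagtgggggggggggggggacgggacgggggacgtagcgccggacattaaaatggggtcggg
The Pdia6 window held 1 ERSE, 98 to 80 bases before the start, with 2 GC boxes and 1 CCCCACCC further upstream. Hspa5 held 1 ERSE, 65 to 47 bases before the start. Pdia4 had no capitals in this stretch, since its only matches, 1 GC box and 1 CCACG, lay after the start. Xbp1 held none of the sequences searched. The ERSE matches of the other carriers are shown here on the strand that reads CCAAT first, with the spacer in lower case.
Calr (chr8:84847075-84847093, plus strand): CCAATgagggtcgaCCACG
Hsp90b1 (chr10:86705638-86705656, minus strand): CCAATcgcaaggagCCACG
Hsp90b1 (chr10:86705533-86705551, plus strand): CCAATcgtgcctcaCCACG
Canx (chr11:50325800-50325818, minus strand): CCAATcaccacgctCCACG
Hsp90b1 held 2 matches, one on each strand, and Calr also held CCCCACCC. The E-box CACGTG, the site of clock factors such as BMAL1, stood in the windows of Calr and Dnajb9, against 7.15% of all windows. No window of the 9 held ERSE-II (ATTGG, 1 base, CCACG; 0.0365% of all windows), the element TGACGTGG (0.676%) or GCCACGT (2.58%). A match is a description of letters and shows no binding.

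The 10 genes differed widely in level, and the folding genes Pdia4 and Dnajb9 lay below the factor Atf6. Over all 36 libraries the mean was 228 FPKM for Hsp90b1, 201 for Calr, 183 for Hspa5 and 147 for Canx. Pdia6 followed with 87.7 FPKM, Pdia3 with 68.9 and Atf6 with 30.4. Pdia4 had 17.9 FPKM, Xbp1 15.4 and Dnajb9 8.92. The SD over libraries was 38.7 FPKM for Hsp90b1, 29.7 for Calr and 25.1 for Hspa5, and 3.16 FPKM for Pdia4 against 2.66 for Xbp1. Neighbours that did not differ beyond this spread were Hsp90b1 and Calr, Calr and Hspa5, and Pdia4 and Xbp1, and every other step was larger than the SD of either gene. All 10 passed the filter of a mean of at least 1 FPKM in all libraries.

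Averaged over the 6 times, Pdia6, Xbp1 and Pdia4 were lower in cK15 hearts, each by a factor of about 0.86 on the scale of log2(FPKM + 1). These 3 of 10 passed an adjusted p of 0.05 (limma, Benjamini-Hochberg over 10600 tested genes), and no gene passed as higher. Of all tested genes, 7.19% passed as lower, 4.06% as higher and 11.2% in either direction. The log2 fold change was below 0 for 9 of the 10 genes, against 54.2% of all tested genes, and its median was -0.11, against -0.012 over all tested genes. After median-ratio rescaling 2 of the 10 passed as lower (Pdia6 and Xbp1) and 1 as higher (Atf6), against 6.02% and 5.72% of all tested genes. After quantile normalization 3 passed as lower (Pdia6, Xbp1 and Pdia4) and 1 as higher (Atf6), against 5.71% and 5.99%, so that the excess of lower over higher calls among all genes depended on the scaling. Values below 0 were found for 8 of the 10 under each rescaling, against 46.8% of all tested genes after the first and 43% after the second. The genotypes were deposited in separate tables, and each FPKM value is scaled within its own library.

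Pdia6, an isomerase also called P5, is a partner of Hspa5. Its lowest, median and highest levels were 65.6, 81.1 and 105 FPKM in cK15 libraries, against 74.4, 93.8 and 110 FPKM in control libraries. The groups overlapped, with most cK15 libraries in the lower part of the range. The mean was 81.1 ± 10.1 FPKM in cK15 and 94.4 ± 9.10 FPKM in control (SD, n = 18 each), a log2 fold change of -0.22 (SE 0.044, limma adjusted p = 0.000703). The value was -0.23 in the 24 other libraries (adjusted p = 0.0074) and -0.21 in the 12 set-apart libraries (adjusted p = 0.0208), so that Pdia6 passed in both. The gene lies on chromosome 12 (17266545 to 17284770, GRCm38, plus strand) and overlaps Atp6v1c2 on the other strand. The sources used here do not state how counting used strand. Atp6v1c2 had a mean of 0.0804 FPKM in cK15 and 0.133 FPKM in control, and was listed at 0 in 22 of the 36 libraries.

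Pdia4, also called ERp72, is a larger isomerase of the same family. Its lowest, median and highest levels were 12.0, 16.1 and 23.8 FPKM in cK15 libraries, against 13.3, 19.4 and 23.4 FPKM in control libraries. The ranges largely coincide, while the medians lie apart. The mean was 16.5 ± 3.03 FPKM in cK15 and 19.3 ± 2.67 FPKM in control (SD, n = 18 each), a log2 fold change of -0.22 (SE 0.067, limma adjusted p = 0.0271). This was the least firm of the 3: it did not pass in the 24 other libraries (-0.20, adjusted p = 0.144) nor in the 12 set-apart libraries (-0.27, adjusted p = 0.0615). Adjusted p was 0.0803 after median-ratio rescaling, 0.223 with the replicate numbers of each genotype as random blocks, and 0.131 to 0.237 without replicate 1 or 4 of cK15 or without replicate 3 or 4 of control.

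Pdia3, also called ERp57, works on glycoproteins held by calreticulin and calnexin. Its lowest, median and highest levels were 47.7, 67.4 and 77.8 FPKM in cK15 libraries, against 53.5, 71.7 and 95.3 FPKM in control libraries. The highest control libraries lay above all cK15 libraries, and elsewhere the genotypes overlapped. The log2 fold change was -0.13 (95% interval -0.265 to 0.0026, limma adjusted p = 0.227), so that no difference passed the test. Pdia3 overlaps Catsper2 on the other strand, which had 2.01 ± 0.594 FPKM in cK15 and 2.30 ± 0.492 FPKM in control libraries.

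Xbp1 encodes the transcription factor that IRE1 activates. Its lowest, median and highest levels were 10.6, 14.1 and 17.3 FPKM in cK15 libraries, against 12.6, 15.96 and 24.05 FPKM in control libraries. No cK15 library reached the upper part of the control range. The mean was 14.1 ± 2.06 FPKM in cK15 and 16.6 ± 2.63 FPKM in control (SD, n = 18 each), a log2 fold change of -0.22 (SE 0.059, limma adjusted p = 0.0119). It passed in the 24 other libraries (-0.21, adjusted p = 0.0437) and not in the 12 set-apart libraries (-0.25, adjusted p = 0.123). Without replicate 4 of cK15 adjusted p was 0.0936, and without replicate 2 of control 0.0683. With the replicate numbers of each genotype as random blocks adjusted p was 0.245, and Pdia6 alone of the 10 passed, against 3.28% of all tested genes. A gene value does not separate the spliced mRNA, which encodes the active factor, from the unspliced form.

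With all libraries, Atf6 was the only member whose log2 fold change lay above 0. Its lowest, median and highest levels were 24.1, 31.8 and 43.3 FPKM in cK15 libraries, against 22.3, 28.1 and 38.0 FPKM in control libraries. The ranges overlapped, with the cK15 values shifted upward. The log2 fold change was 0.14 (95% interval 0.0221 to 0.267, limma adjusted p = 0.128), which did not pass. It passed after median-ratio rescaling (0.17, adjusted p = 0.0201), after quantile normalization (adjusted p = 0.0433), in the 12 set-apart libraries (0.21, adjusted p = 0.029) and without replicate 3 of cK15 (adjusted p = 0.049). In the 24 other libraries the value was 0.11 (adjusted p = 0.157).

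The major chaperones did not pass in either direction. Hspa5 had 128, 179 and 218 FPKM as its lowest, median and highest levels in cK15 libraries, against 152, 186 and 231 FPKM in control libraries, and the genotypes overlapped almost throughout. Its log2 fold change was -0.11 (95% interval -0.227 to 0.0108, adjusted p = 0.274). Hsp90b1, also called GRP94, which folds integrins and Toll-like receptors, averaged 227 ± 43.0 FPKM in cK15 and 229 ± 35.04 FPKM in control (SD, n = 18 each). Its value of -0.02 (95% interval -0.207 to 0.162) turned above 0 under both rescalings. Dnajb9, also called ERdj4, a co-chaperone of Hspa5, averaged 8.76 ± 3.40 FPKM in cK15 and 9.08 ± 2.67 FPKM in control (SD, n = 18 each), a value of -0.07 (95% interval -0.369 to 0.222) that also changed sign when single replicates were left out.

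Neither lectin chaperone passed. Calr, which also binds calcium in the ER lumen, averaged 193 ± 29.0 FPKM in cK15 and 209 ± 28.9 FPKM in control (SD, n = 18 each), with a log2 fold change of -0.12 (95% interval -0.272 to 0.0379, adjusted p = 0.392). Canx, its membrane-bound relative, averaged 143 ± 15.0 FPKM in cK15 and 150 ± 19.8 FPKM in control (SD, n = 18 each), with a log2 fold change of -0.06 (95% interval -0.194 to 0.069).

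**Figure D1:**
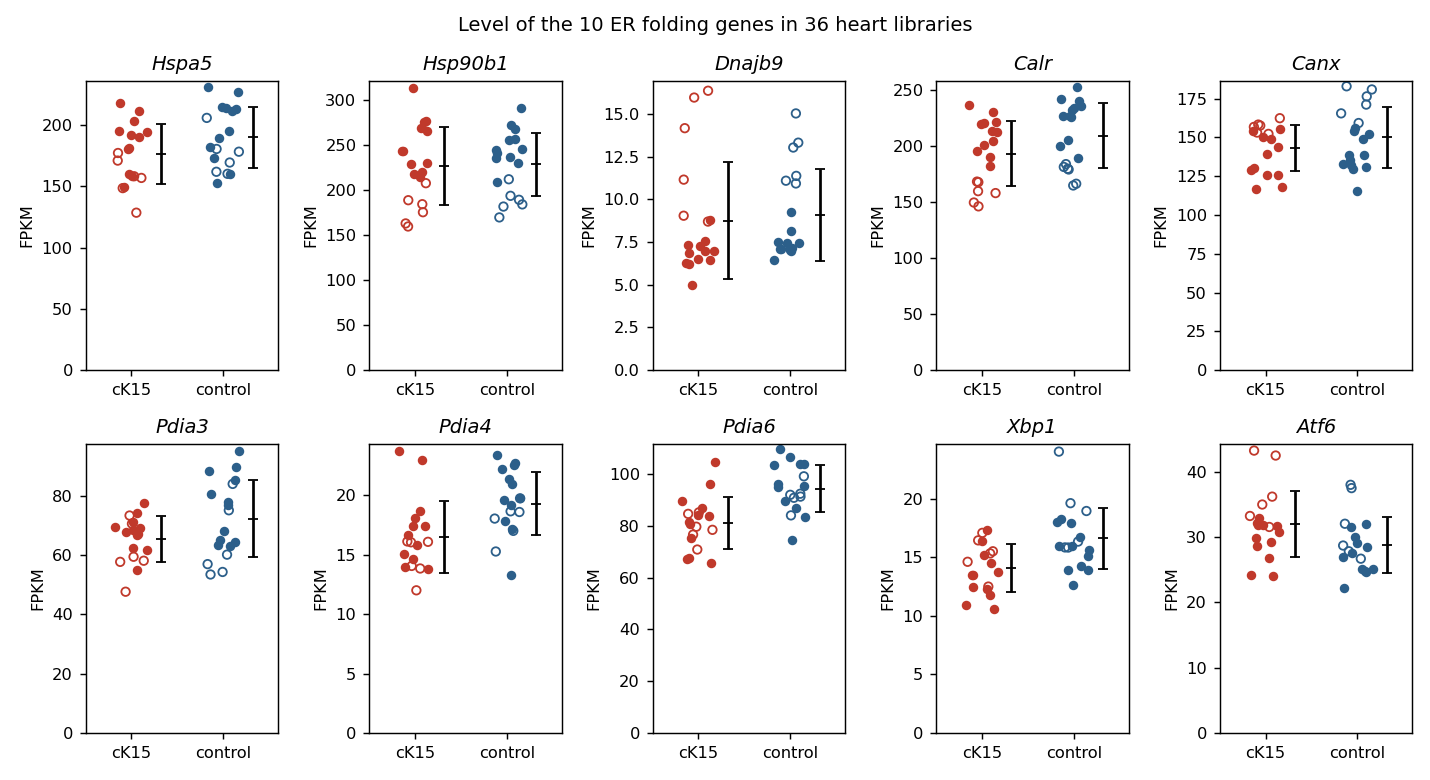
FPKM of each gene in the 18 cK15 libraries (left, red) and the 18 control libraries (right, blue), with the mean and SD as a black bar; open circles are the 12 set-apart libraries. Pdia6, Xbp1 and Pdia4 lie lower in cK15, while the open circles stand high for Dnajb9 and low for Hsp90b1 and Calr in both genotypes.

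Several members differed more between the library sets than between genotypes. Within a group, the set-apart library was above the mean of the other libraries in 12 of 12 groups for Dnajb9, Canx and Atf6, by 0.72, 0.26 and 0.26 on the log2 scale on average. It was below them in 12 of 12 groups for Hsp90b1 and Calr, by -0.43 and -0.38. Dnajb9 had 12.5 ± 2.54 FPKM in the 12 set-apart libraries (SD) and 7.12 ± 0.840 FPKM in the other 24. Pdia6 had the smallest mean difference, -0.05. The sets are spread evenly over genotype and time, 6 of 18 libraries in each genotype and 2 of 6 at each time. With a term for the set in the fit, 5 members passed for the averaged difference, against 20.5% of all tested genes: Pdia6, Xbp1 and Pdia4 as before, Calr as lower (-0.12, adjusted p = 0.00813) and Atf6 as higher (0.14, adjusted p = 0.00447). Of all tested genes, 11.1% passed in the 24 other libraries, where Pdia6 and Xbp1 did, and 5.43% in the 12 set-apart libraries, where Pdia6 and Atf6 did.

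**Figure D2:**
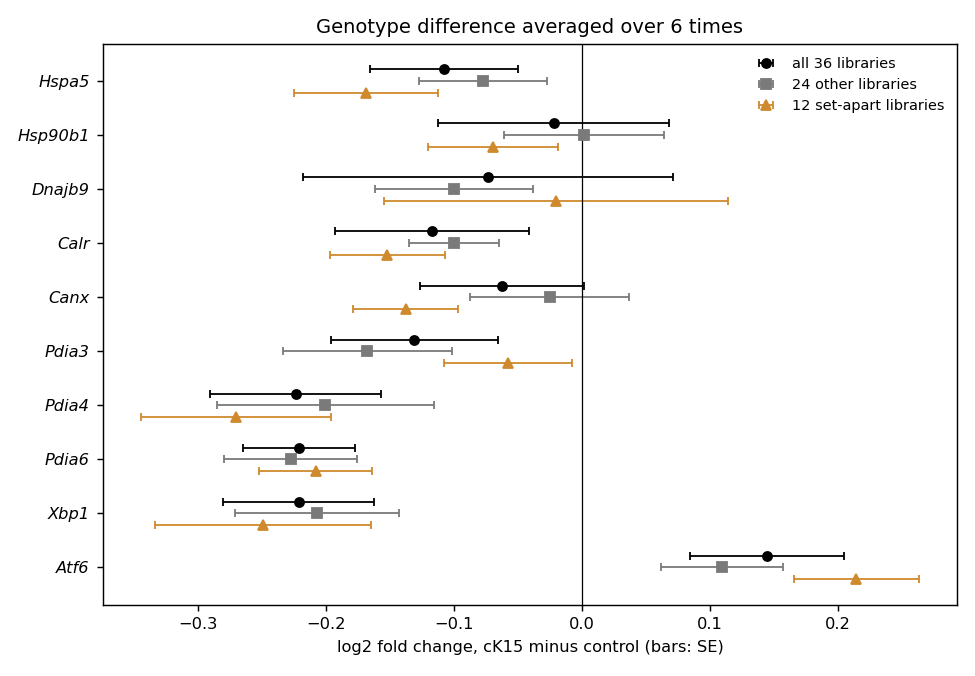
Averaged log2 fold change of cK15 over control for each gene, with its SE, in all 36 libraries (black), the 24 others (grey) and the 12 set-apart libraries (orange). Pdia6 stays between -0.23 and -0.21 in all 3, and Atf6 alone lies right of 0 in each.

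In bulk tissue, fewer cells of a type and less RNA per cell cannot be told apart. Markers of other cell types also differed between the genotypes. The counts below stand beside 7.19% of all tested genes that passed as lower and 4.06% as higher. In limma, 2464 of the 10600 tested genes had an unadjusted p under 0.05. Of 7 fibroblast markers, 6 were lower in cK15, and their summed level was 1316 to 1609 FPKM in cK15 libraries, against 1564 to 1928 FPKM in control libraries. Of 8 macrophage markers, 7 were lower, with a summed level of 153 to 245 FPKM in cK15 and 173 to 268 FPKM in control libraries. Of 8 heart muscle markers, 2 were higher, Actc1 and Ckm. None of 7 endothelial markers passed (limma, 5 at an unadjusted p under 0.05), with a summed level of 248 to 327 FPKM in cK15 and 259 to 377 FPKM in control libraries. Of 5 smooth muscle markers tested, Acta2 was lower, with a summed level of the list of 208 to 365 FPKM in cK15 and 230 to 406 FPKM in control libraries. Plasma and B cell markers summed to at most 3.90 FPKM in cK15 and 3.20 FPKM in control libraries. The part of these shifts in the lower Pdia6, Xbp1 and Pdia4 was not tested.

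At single times, none of the 60 contrasts of the 10 genes passed (limma, each time adjusted over all tested genes), with 7 at an unadjusted p under 0.05. Among the 10600 tested genes, 616 (12 pm) to 894 (4 pm) had an unadjusted p under 0.05 in limma at a single time. Of all tested genes, 1.22% passed at 12 am, 1.13% at 4 am, 1.07% at 8 am, 0.755% at 12 pm, 1.31% at 4 pm and 1.13% at 8 pm. The log2 fold change was below 0 in 49 of the 60 contrasts, and in all 10 genes at 8 am. Among the 10600 tested genes, 5684 lay below 0 at 8 am, and from 5136 (8 pm) to 6068 (12 am) at single times. Pdia6, Pdia4, Pdia3 and Calr were below 0 at all 6 times. In 8 of the 60 contrasts the genotypes did not overlap and cK15 was lower, against 6.94% of all contrasts of tested genes, and in 1 they did not overlap and cK15 was higher, against 4.17%.

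Pdia6 separated at noon and at 8 pm. At 12 pm it had 78.5, 80.6 and 81.5 FPKM in cK15 libraries, against 92.1, 104 and 104 FPKM in control libraries. At 8 pm it had 67.1, 67.7 and 70.9 FPKM in cK15 libraries, against 74.4, 86.9 and 84.1 FPKM in control libraries. The cK15 libraries lay close together at both times and below all controls.

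Xbp1 separated at 4 of the 6 times, from 8 am to 8 pm, but by narrow gaps at 12 pm and 8 pm. At 12 pm the highest cK15 library had 15.3 FPKM and the lowest control library 15.7 FPKM. At 8 pm these values were 12.5 and 12.6 FPKM. At 8 am Xbp1 had 15.5, 17.3 and 13.5 FPKM in cK15 libraries, against 24.05, 18.3 and 18.02 FPKM in control libraries. At 4 pm it had 14.6, 12.3 and 10.9 FPKM in cK15 libraries, against 15.8, 15.9 and 16.8 FPKM in control libraries. At 4 am its log2 fold change was 0.05, the only one above 0. Pdia4 had its largest difference at 4 pm, with 13.8, 17.4 and 13.95 FPKM in cK15 libraries, against 18.04, 22.7 and 21.4 FPKM in control libraries (-0.44, limma adjusted p = 0.32). Atf6 was the reverse at 8 pm, with 31.7, 32.2 and 36.2 FPKM in cK15 libraries, against 24.8, 27.0 and 28.7 FPKM in control libraries (0.30, limma adjusted p = 0.637). The test of whether the genotype difference varied between times passed for none of the 10 genes, and for 1 of 10600 tested genes (0.00943%; 205 at an unadjusted p under 0.05).

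**Figure D3:**
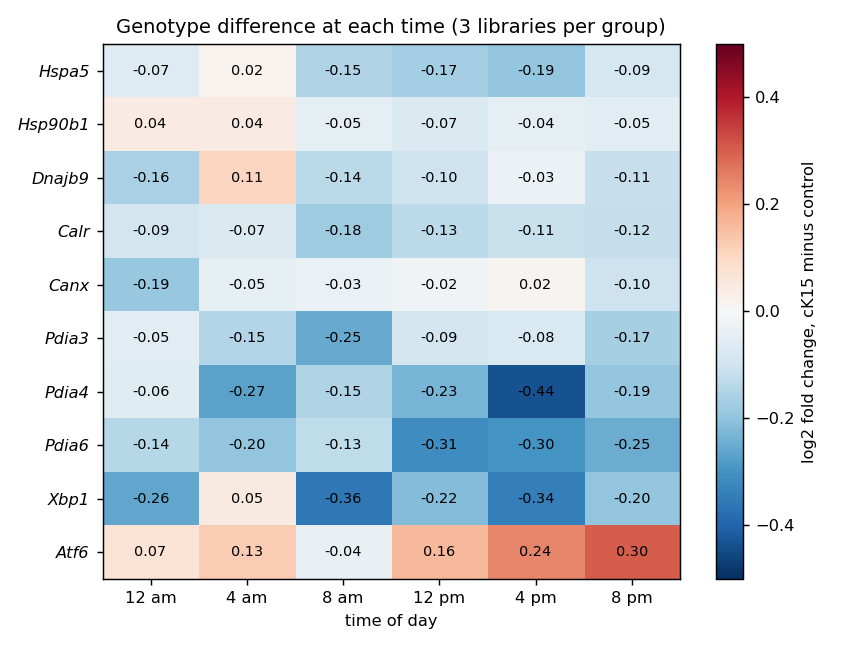
Log2 fold change of cK15 over control for each gene (rows) at each time of day (columns), from 3 libraries per group; blue is lower and red higher in cK15. Blue fills the rows of Pdia6, Pdia4, Pdia3 and Calr, and Atf6 reaches 0.30 at 8 pm.

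Across the day, the means of Pdia6 and Xbp1 pooled over both genotypes were lowest at 8 pm. That of Pdia6 was nearly flat from 12 am to 12 pm, that of Xbp1 was highest at 8 am and that of Atf6 at 12 am. A 24 h curve shared by both genotypes passed for Atf6, Pdia6 and Xbp1, 3 of 10, against 7.69% of all tested genes. The median amplitude of the 10 was 0.13, against 0.073 over all tested genes. An amplitude is the log2 distance between a curve's mean and its peak, and peak hours count from midnight.

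Pooled over both genotypes, Pdia6 had 92.1 ± 8.84 FPKM at 12 am, 91.9 ± 10.4 at 4 am, 93.2 ± 9.48 at 8 am, 90.1 ± 11.7 at 12 pm, 83.9 ± 13.0 at 4 pm and 75.2 ± 8.47 FPKM at 8 pm (SD, n = 6 each). The level was nearly flat into the forenoon and lowest at 8 pm. The amplitude was 0.13 (SE 0.032) with a peak at 6.5 h (SE 0.94 h; limma adjusted p = 0.0196). In the 24 other libraries it was 0.17 (adjusted p = 0.0223), and in the 12 set-apart libraries 0.05 (adjusted p = 0.703). Without replicate 3 or 4 of cK15, or replicate 2 or 4 of control, adjusted p was 0.0646 to 0.137.

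Xbp1 had 15.5 ± 3.01 FPKM at 12 am, 15.4 ± 1.34 at 4 am, 17.8 ± 3.56 at 8 am, 15.8 ± 2.04 at 12 pm, 14.4 ± 2.31 at 4 pm and 13.3 ± 1.65 FPKM at 8 pm (SD, n = 6 each). It stood highest at 8 am and lowest at 8 pm. The amplitude was 0.15 (SE 0.041) with a peak at 7.6 h (SE 1.0 h; limma adjusted p = 0.0449). It did not pass in the 24 other libraries (0.15, adjusted p = 0.0972) or in the 12 set-apart libraries (0.16, adjusted p = 0.333). Adjusted p was 0.0808 to 0.234 without replicate 1 or 3 of cK15 or replicate 2 or 3 of control.

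Atf6 had 34.8 ± 4.49 FPKM at 12 am, 33.0 ± 6.17 at 4 am, 29.9 ± 3.64 at 8 am, 27.6 ± 2.51 at 12 pm, 27.0 ± 4.23 at 4 pm and 30.1 ± 4.10 FPKM at 8 pm (SD, n = 6 each). It was highest around midnight and lowest in the afternoon. The amplitude was 0.17 (SE 0.040) with a peak at 1.8 h (SE 0.89 h; limma adjusted p = 0.0121), and it passed in both library sets, with 0.14 in the 24 others and 0.25 in the 12 set-apart libraries. Without control replicate 2, 3 or 4 adjusted p was 0.0502 to 0.0669.

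Hspa5, Pdia3 and Pdia4 had peaks close to those of Pdia6 and Xbp1 without passing. Hspa5 had an amplitude of 0.13 with a peak at 8.1 h (limma adjusted p = 0.0842). Its pooled level was 196 ± 21.2 FPKM at 8 am and 153 ± 12.4 FPKM at 8 pm (SD, n = 6 each). Pdia3 had an amplitude of 0.15 with a peak at 6.1 h (adjusted p = 0.0864), and Pdia4 one of 0.14 with a peak at 8.7 h (adjusted p = 0.114). With a term for the library set, these 3 passed beside the first 3, 6 of 10, against 15.1% of all tested genes. The same 6 passed with the replicate numbers as a fixed block term (adjusted p = 0.0194 for Hspa5 and 0.0215 for Pdia4), against 11.1% of all tested genes. In the 24 other libraries Atf6, Hspa5 and Pdia6 passed (0.17 for Hspa5, adjusted p = 0.0275), against 5.42% of all tested genes, and in the 12 set-apart libraries Atf6 alone, against 1.99%. Hsp90b1, Calr, Canx and Dnajb9 had amplitudes of 0.03 to 0.07, and their adjusted p ranged from 0.734 to 0.956.

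**Figure D4:**
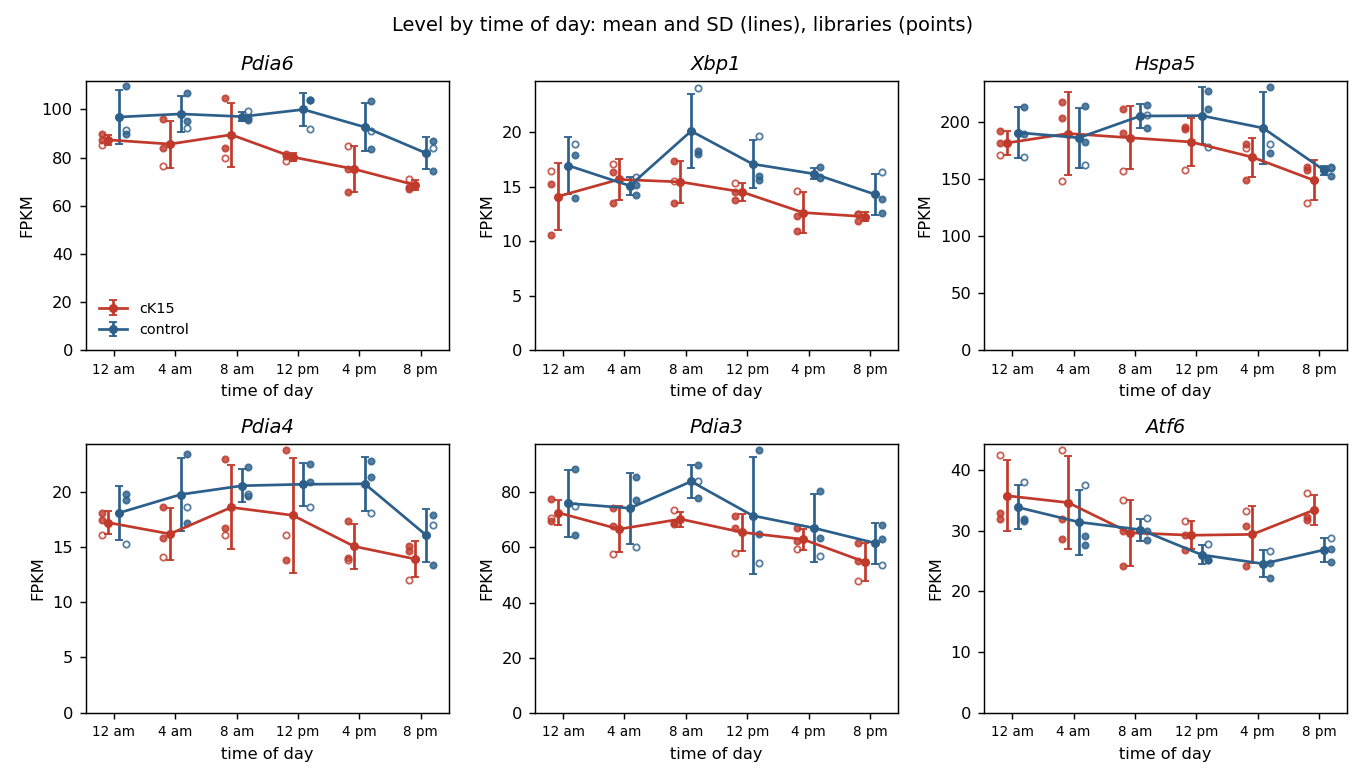
FPKM of 6 genes at the 6 times of day in cK15 (red) and control (blue) libraries; lines join the means of 3 libraries with SD bars, points are libraries, and open points are the set-apart ones. Pdia6, Hspa5, Pdia4 and Pdia3 have their lowest pooled mean at 8 pm, Xbp1 likewise, and Atf6 has its lowest at 4 pm.

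For a 24 h curve within cK15, 2 of 10 members had an unadjusted p under 0.05 (limma), against 949 of 10600 tested genes. No member passed there, against 1.08% of all tested genes. In control 1 passed, where 2.8% of all tested genes did. It was Atf6, with an amplitude of 0.16 and a peak at 0.29 h in cK15 (adjusted p = 0.617), against 0.21 and 2.9 h in control (adjusted p = 0.0443). That call in control was lost without any 1 of the 3 control replicates (adjusted p 0.165 to 0.301). Pdia6 had an amplitude of 0.16 with a peak at 5.8 h in cK15, and 0.10 with a peak at 7.6 h in control. The test of a difference in rhythm between genotypes passed for none of the 10, and for none of 10600 tested genes in limma (291 at an unadjusted p under 0.05). A 12 h component passed for none of the 10 either, and in limma for none of the tested genes (402 at an unadjusted p under 0.05). The 6 times, 4 h apart, cover 1 day and give 3 points per 12 h cycle, which limits what that test can show. A test of any difference between times passed for Pdia6 alone (adjusted p = 0.025), against 4.59% of all tested genes, and for 4 genes with the replicate numbers as a fixed block term, against 7.59%.

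Some markers of other cell types also had shared 24 h curves that passed, as did 7.69% of all tested genes. The 24 h curve passed for 3 of 7 endothelial markers, Kdr with a peak at 7.7 h, Cdh5 at 8.0 h and Tek at 5.2 h. It passed for 4 of 7 fibroblast markers, with peaks from 5.0 h for Pdgfra to 11.1 h for Col3a1 and one at 22.8 h for Dcn, and for 2 of 8 macrophage markers, Emr1 at 7.3 h and Lyz2 at 8.8 h. Of 5 smooth muscle markers Acta2 passed, with a peak at 11.7 h (limma adjusted p = 0.0478). The peaks of Kdr, Cdh5 and Emr1 lay within the span of 6.1 h to 8.7 h of Pdia6, Xbp1, Hspa5, Pdia3 and Pdia4. The other markers peaked earlier or later, Tek and Lyz2 by less than their SE (1.0 h each). None of 8 heart muscle markers passed (limma, 1 at an unadjusted p under 0.05). The part of these cell types in the morning peaks of the curves fitted to the folding genes was not tested.

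The wider ER pathway was read from 7 lists with 116 genes, none of them a member, of which 105 were tested. For the averaged difference 4.76% of them (5 genes) were higher and 8.57% (9 genes) lower in cK15, against 4.06% and 7.19% of all tested genes. Their median log2 fold change was -0.03, against -0.012 over all tested genes, and 63 of the 105 lay below 0, against 54.2%. The counts in single lists below stand beside the same shares of all tested genes, and the share below 0 depends on the scaling as given above.

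Among 18 chaperones and co-chaperones 2 were lower and none higher, and 15 (83.3%) lay below 0, against 54.2% of all tested genes. The share below 0 was 72.7% of the isomerases, 62.5% of the lectin cycle and 84.2% of the translocon list. It was 28.6% of the unfolded protein response sensors and proteases, 28.6% of the PERK arm and 29.2% of ER-associated degradation. Sdf2l1, a partner of Hspa5 and ER-resident DnaJ proteins, had 1.78 ± 0.708 FPKM in cK15 and 2.80 ± 1.10 FPKM in control (SD, n = 18 each; -0.43, limma adjusted p = 0.00714). Dnajc10, a reductase with a J domain, had 32.2 ± 2.95 FPKM in cK15 and 35.02 ± 2.35 FPKM in control (-0.12, adjusted p = 0.0329). Among 22 disulfide and proline isomerases 2 were lower and none higher. Fkbp10, a proline isomerase of collagen folding, had 3.76 ± 0.990 FPKM in cK15 and 6.17 ± 1.36 FPKM in control (-0.60, adjusted p = 1.62e-05), and Ppic, a cyclophilin, had a value of -0.25 (adjusted p = 0.0283).

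No gene passed among 8 of the lectin cycle and 7 UPR sensors and proteases (limma; none in either list at an unadjusted p under 0.05). The stress arm downstream of PERK was mixed among its 7 tested genes. Atf3, a stress-induced transcription factor, had 1.56 ± 0.656 FPKM in cK15 and 0.787 ± 0.312 FPKM in control (0.49, adjusted p = 0.000328). Sqstm1, which encodes the autophagy receptor p62, had 181 ± 24.9 FPKM in cK15 and 149 ± 22.2 FPKM in control (0.28, adjusted p = 4.81e-05). Asns, asparagine synthetase, a target of ATF4, had 1.89 ± 0.583 FPKM in cK15 and 3.02 ± 1.02 FPKM in control (-0.46, adjusted p = 0.00194).

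Of 24 genes of ER-associated degradation, 3 were higher and 2 lower. Dnajb2, a J protein that binds ubiquitin chains, was higher (0.22, adjusted p = 0.00129), as was Ubxn4 (0.15, adjusted p = 0.0113). Os9, a lectin that selects misfolded glycoproteins, was lower (-0.31, adjusted p = 0.00328), as was Vimp (-0.25, adjusted p = 0.00952). Of 19 genes of the translocon and signal peptidase 2 were lower and none higher, the channel subunit Sec61b (-0.24, adjusted p = 0.014) and the translocon-associated Ssr4 (-0.15, adjusted p = 0.0218). Of the 13 genes named for this comparison, Fkbp10, Sqstm1, Atf3, Dnajb2 and Os9 passed in both library sets. Fkbp10, Sqstm1, Atf3, Asns and Dnajb2 passed whichever replicate was left out, and the other 8 lost the call without at least 1 replicate.

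For the shared 24 h curve 6 of the 105 genes passed (5.71%), against 7.69% of all tested genes, and their peaks fell into different parts of the day. Manf, a secreted ER stress protein, had an amplitude of 0.29 with a peak at 7.1 h (limma adjusted p = 0.00366). Hyou1, a nucleotide exchange factor of Hspa5, had 0.16 with a peak at 6.0 h (adjusted p = 0.025), and Serpinh1, the collagen chaperone HSP47, 0.21 with a peak at 5.2 h (adjusted p = 0.0119). Herpud1, a component of the degradation machinery, had 216 ± 30.9 FPKM at 12 am, 167 ± 30.3 at 4 am, 116 ± 14.1 at 8 am, 142 ± 19.8 at 12 pm, 169 ± 11.4 at 4 pm and 257 ± 25.7 FPKM at 8 pm (SD, n = 6 each). Its amplitude was 0.52 with a peak at 21.2 h (adjusted p = 7.61e-10). Sqstm1 peaked at 20.5 h (0.23, adjusted p = 2.04e-06) and Tmx1, a membrane-bound thioredoxin, at 16.97 h (0.28, adjusted p = 0.0144). Herpud1 passed in both library sets, and Herpud1, Manf and Sqstm1 whichever replicate was left out.

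**Figure D5:**
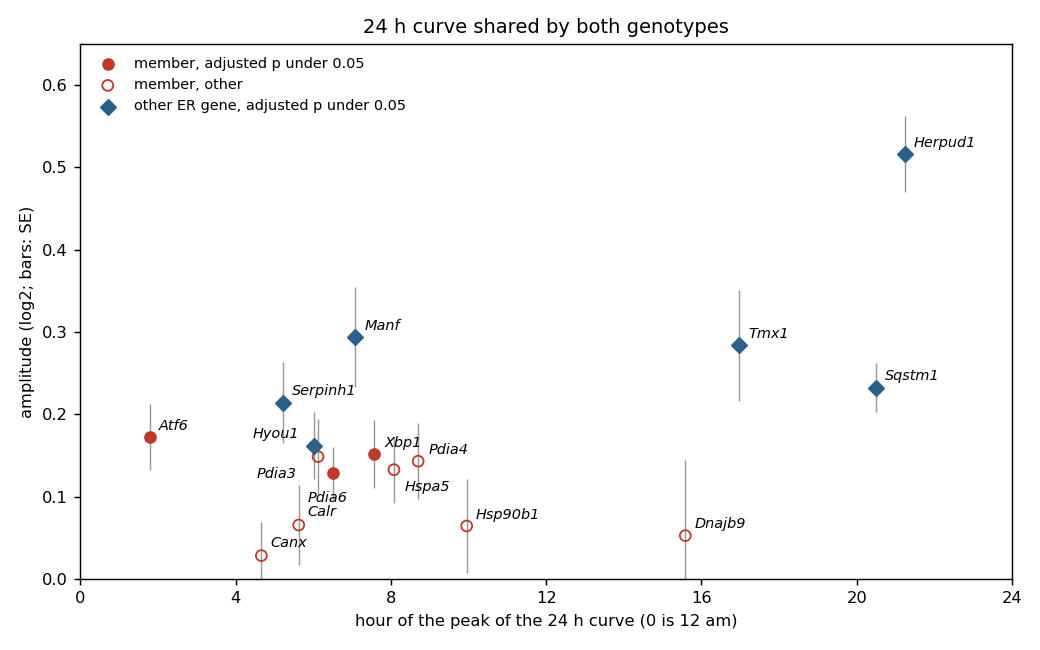
Amplitude (log2, with SE) against the hour of the peak of the 24 h curve shared by both genotypes, for the 10 members (circles, filled where adjusted p was under 0.05) and the 6 other ER genes that passed (diamonds). Pdia6, Xbp1, Hspa5, Pdia3 and Pdia4 lie between 6.1 h and 8.7 h, beside Manf and Hyou1, while Atf6 lies at 1.8 h and Herpud1 and Sqstm1 after 20 h.

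The members did not vary as 1 block. Over the 36 libraries, 27 of the 45 pairs of members had a positive Pearson correlation, from -0.75 to 0.86 with a median of 0.33. Taken as deviations from the means of each group and library set, 26 pairs were positive, from -0.45 to 0.83 with a median of 0.18. Single pairs changed with that step: Hsp90b1 and Dnajb9 stood at -0.75 over the libraries and at -0.12 as deviations, and Hsp90b1 and Canx at -0.36 and 0.78. The mean standardized profile of the 10 followed Pdia6 most closely (r = 0.91), then Hspa5 (0.82), Pdia4 (0.78) and Xbp1 (0.70), while Atf6 and Dnajb9 stood at -0.09 each. With the profile taken over the 12 group means, members ranged from 0.68 (Hsp90b1, Canx) to 0.94 (Calr, Pdia6), except Dnajb9 (0.13) and Atf6 (-0.13). Outside the members, the genes most like that profile over the 36 libraries were Manf (r = 0.84), Dpt (0.69), Cdh11 (0.69), Cald1 (0.69) and Plin5 (0.69). Over the 12 group means they were Cep44 (0.95), Nqo2 (0.91), Lipt1 (0.90), Slc18b1 (0.90) and Arhgap18 (0.90). All these values share libraries and their scaling, and the members are part of the profile.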

How the data were processed

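Heart apex RNA from 36 libraries was measured by RNA sequencing. Per the labels' protocols, ribosomal RNA was depleted and stranded total RNA libraries were read as paired ends. The authors deposited FPKM values per gene and library, in a table for each genotype. GSNAP, HTSeq and the build mm10 were used, per the submitters' processing notes. The sources used here give neither their versions and roles nor the annotation. FPKM can include unspliced RNA where the counting took in introns, and a few abundant genes can lower all other values of a library. Depth is unknown, so no counting interval is given.

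Linear models were fitted to log2(FPKM + 1) with limma (version 3.58.1, R version 4.3.3), for 10600 genes (a mean of at least 1 FPKM, and Klf15), with trended and robust variance moderation and Benjamini-Hochberg adjustment over all of them. Fold changes on this scale understate those of low genes. Genotypes were compared by 12 group means, averaged over the day or taken at a single time. Rhythm was tested through cosine and sine terms of the hour after midnight, read from 12 am, with a 24 h period and with an added 12 h component. The scripts were tested on simulated data. Promoter windows came from RefSeq (GRCm38.p6), and gene positions from an annotation of the same build.

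The members and lists were chosen with earlier results of these data known. All members are named. From each list, at most 4 genes that passed for the averaged difference and 4 for the shared curve are named, by smallest adjusted p, and the 5 outside genes most like the members' mean profile. The marker lists are fibroblast, endothelial, macrophage, smooth muscle, heart muscle, plasma and B cell, and blood, the last with none of 2 tested genes past the test in limma (1 at an unadjusted p under 0.05). Replicate numbers 3 and 4 occur in both genotypes. Deviations from the group means correlated between same-numbered libraries of the genotypes by 0.157 to 0.508 in all 12 pairs, and numbers 1 and 2 are not shared. Within a genotype, same-numbered libraries of different times correlated by -0.322 to 0.554. The median was above 0 for every replicate number of either genotype, from 0.225 to 0.493. For replicate 3 of both genotypes all values were above 0. Alternatives were another pseudocount, filters, rescalings, variance settings, replicate blocks, the library sets and leaving out each replicate.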

Additional observations from a re-analysis of the deposited data

How the results depend on the processing

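The averaged difference of Pdia6 passed in all 17 alternatives, that of Xbp1 in 13 and that of Pdia4 in 9. Of the 10 genes, 3 passed with all libraries, 5 with a term for the library set, and 1 to 4 when single replicates were left out. The shared 24 h curve passed for 3 genes with all libraries, 6 with a term for the library set, 1 in the 12 set-apart libraries and 0 to 3 when single replicates were left out. Any difference between times passed for 1 gene with all libraries, 5 with the library set term (against 10.7% of all tested genes), 0 within either genotype alone and 0 to 1 when single replicates were left out. The control curve passed for 1 gene (Atf6) with all libraries. It passed for 0 in limma with no filter on low values (adjusted p = 0.0685) and with a constant prior variance (adjusted p = 0.059). The same held in either library set and when any single control replicate was left out. In all control libraries Atf6 had an unadjusted p of 0.0011 (limma).

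The sign of the averaged difference turned for 3 genes that never passed. Hsp90b1 was 0.0025 after median-ratio rescaling, 0.0034 after quantile normalization and 0.0016 in the 24 other libraries, and -0.17 to 0.10 when single replicates were left out. Canx ranged from -0.13 to 0.0092 and Dnajb9 from -0.30 to 0.098 when single replicates were left out. The cause was not tested in any of these cases.

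With a replicate block that takes each number within its genotype as a random series, the averaged difference passed for 1 gene (Pdia6, with Xbp1 and Pdia4 lost), the shared curve for 6 and any difference between times for 4, against 3.28%, 11.5% and 8.12% of all tested genes. This block sets the genotype difference against the spread between series. With the number as a fixed term of the replicate block, the averaged difference passed for 3 genes, the shared curve for 6 and any difference between times for 4, against 11.1%, 11.1% and 7.59%. The numbers of the labels are not stated to mark a shared animal, litter or day. No counts or depths were available, so precision is known only from the spread between libraries.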
